A study of Rattus norvegicus with 325 samples.

Results

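Runx1, Runx2, Runx3, Cbfb and Runx1t1 were followed in skeletal muscle of male Sprague Dawley rats, an outbred strain, at 7 ages from 6 to 27 months (9, 12, 18, 21 and 24 months between them). The 5 genes were taken by symbol from the 17315 symbols of the count files, and each had 1 line. The series held RNA-seq libraries of 4 muscles, 83 of diaphragm, 73 of gastrocnemius, 84 of soleus and 85 of tibialis anterior, with 9 to 13 libraries for each muscle and age. No group carried a transgene or a drug treatment. The rats were aged at the supplier and moved to the study site some weeks before collection, and the tissues of one age were collected on one day, which means that an effect of age cannot be told apart from one of the collection day. According to the study's methods the libraries of one group come from different animals, and the labels do not name the animals.

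Runx1, Runx2 and Runx3 are transcription factors that bind DNA through a shared runt domain. Cbfb has no DNA-binding domain of its own and pairs with each of them, which raises their affinity for DNA and protects them from degradation. Runx1 is best known for the formation of blood stem cells and, in skeletal muscle, for its induction after loss of the nerve. Runx2 is the main regulator of bone formation, and Runx3 acts in cytotoxic T cells, NK cells and sensory neurons of the muscle stretch reflex. Runx1t1, also called ETO, is a co-repressor that has no runt domain and owes its name to a leukemia fusion with Runx1.

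Promoter windows of RefSeq (build GRCr8, 250 bases before to 50 after a start site) were at hand for Runx1, Runx2, Runx3 and Cbfb, and they were searched for the Runx motif, TGTGGT or TGCGGT on either strand (ACCACA and ACCGCA as the other strand reads). Of the 6 windows of these 4 genes, 2 held the motif, with 4 matches in the Runx2 window and 2 in the Runx3 window. Among all 33469 windows, 22.9% held at least 1 match and 3.04% held at least 2. The matches lay in 1 of 2 Runx2 windows and in 1 of 2 Runx3 windows. They are shown here because these stretches carry the family's own motif, in capitals, more than once in all but the upstream Runx2 stretch. The Runx3 stretch is chr5:152644129-152644154, plus strand, upstream of the start site with motif bases from -135 to -122. The Runx2 stretches are chr9:23664976-23664993, upstream at -76 to -71, and chr9:23665079-23665107, just after the start site, both on the plus strand.
Runx3, upstream: ccctcaACCACAgaACCACAaggcca
Runx2, upstream: tcacaaACCACAtgattc
Runx2, after the start: caaacaACCACAgaACCACAagTGCGGTg
These matches are a description of the letters. The windows of Runx1 (chr11:45421276-45421575, minus strand) and Cbfb (chr19:49958846-49959145, plus strand) held none of these letters.

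Levels are given in CPM, the counts of a gene as a share of the library total on a common scale, with 1 TMM scaling over all libraries. Library totals ranged from 17555294 to 85316329 counts. As a check of the labels, Myh7, the slow myosin heavy chain, exceeded Myh4, the fast IIB chain, in all 83 diaphragm and all 84 soleus libraries and in 0 of the 158 gastrocnemius and tibialis anterior libraries. Libraries were also scored on a library axis, the first principal component of the spread between libraries of one age, taken from another muscle and without the 5 genes, in units of 1 SD within a muscle. Gastrocnemius was scored on the component of tibialis anterior, and the other 3 muscles on that of gastrocnemius. The sign of each component was set so that its scores went up with Cbfb, so a low score is partly low Cbfb by that choice. The scores were low in 1 diaphragm library of 18 months (-5.93), in the 27-month diaphragm (median -1.57) and in the 18-month tibialis anterior (median -1.52) and soleus (median -1.01). Single libraries of 27 months were also low, 4 of tibialis anterior (-1.86 to -3.09) and 2 of soleus (-1.59 and -3.99). By the running numbers in the library names, each age of diaphragm, soleus and tibialis anterior formed an unbroken block within its series. The blocks followed each other as 18, 27, 9, 24, 21 and 6 months. Age thus cannot be told apart from number order in these muscles. The 9-month block also lay next to that of 27 months, and its median scores were 0.36 in diaphragm and tibialis anterior and -0.43 in soleus. Whether neighbouring blocks were processed together is not given. All gastrocnemius libraries had a number series of their own, with the ages interleaved except for an unbroken block of 12 months, so a difference of gastrocnemius from another muscle cannot be told apart from one of number series. The 12-month libraries of the other 3 muscles were in a separate series, with 1 library of 21 months each. A gene was called changed where the limma adjusted p (Benjamini-Hochberg, over all genes of that muscle) was under 0.05 and the change exceeded 1.5-fold.

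Runx1 rose in all 4 muscles between 6 and 27 months, 34.3-fold in tibialis anterior, 13-fold in gastrocnemius, 7.14-fold in soleus and 3.42-fold in diaphragm. In tibialis anterior the 12 libraries of 6 months held 7.42 to 13.6 CPM (median 8.84), and the 12 libraries of 27 months held 154 to 593 CPM (median 333). In gastrocnemius the level went from 11.6 to 18.3 CPM (median 15.1, n = 10) to 84.1 to 328 CPM (median 206, n = 11). In these 2 muscles every older library lay above every 6-month library from 18 months on.

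The soleus held 12.8 to 20.9 CPM of Runx1 (median 17.9, n = 12) at 6 months and 24.3 to 216 CPM (median 141, n = 12) at 27 months, again without overlap. In diaphragm it held 5.61 to 17.9 CPM (median 6.92, n = 12) at 6 months and 10.5 to 82.2 CPM (median 20.7, n = 12) at 27 months. The diaphragm groups overlapped through a single 6-month library at 17.9 CPM, since the next highest 6-month value was 8.21 CPM. Among all genes tested, the 27- and 6-month libraries did not overlap, with higher values at 27 months, for 8.91% in tibialis anterior, 6.53% in gastrocnemius, 2.23% in soleus and 1.27% in diaphragm.

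**Figure D1:**
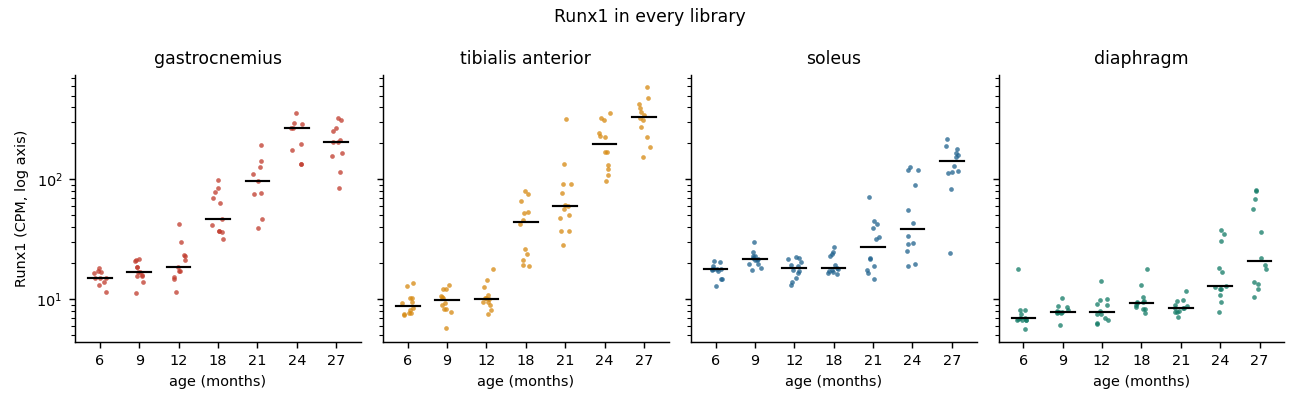
Runx1 level in CPM (log axis) against age in months, 1 panel per muscle; points are libraries and bars are medians. The gastrocnemius and tibialis anterior leave the 6-month range at 18 months, and the soleus and diaphragm spread out at 24 and 27 months.

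The log2 change from 6 to 27 months was 5.10 ± 0.28 (SE) in tibialis anterior (limma adjusted p = 7.5e-27), 3.70 ± 0.23 in gastrocnemius (limma adjusted p = 2.8e-22), 2.84 ± 0.26 in soleus (limma adjusted p = 4.4e-16) and 1.77 ± 0.26 in diaphragm (limma adjusted p = 4.9e-08). By this rule 17.2%, 15.1%, 9.21% and 3.27% of genes were called higher in these muscles. Ordered by change from the most increased, Runx1 stood at rank 31 of 11754 genes in tibialis anterior, 54 of 11865 in gastrocnemius, 67 of 12175 in soleus and 41 of 12035 in diaphragm.

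The rise was first called at 18 months in the 2 fast muscles and at 24 months in soleus and diaphragm. At 18 months the log2 change was 2.07 ± 0.28 in tibialis anterior (limma adjusted p = 2.0e-08) and 1.80 ± 0.23 in gastrocnemius (limma adjusted p = 2.5e-08). At that age 4.11% and 3.63% of genes were called higher, and 0.757% and 0.674% were higher without overlap. At 21 months the changes were 2.89 ± 0.27 in tibialis anterior (5.5% of genes called higher, 0.783% without overlap) and 2.57 ± 0.24 in gastrocnemius (4.27% and 1.42%). At 24 months they were 4.36 ± 0.28 in tibialis anterior (10.9% and 5.15%) and 3.89 ± 0.24 in gastrocnemius (11.4% and 4.64%). In soleus and diaphragm the 18-month changes were 0.17 ± 0.29 and 0.32 ± 0.28, with limma adjusted p = 0.71 and 0.42.

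At 24 months the log2 change was 1.43 ± 0.26 in soleus (limma adjusted p = 1.4e-05, with 3.87% of genes called higher) and 1.05 ± 0.28 in diaphragm (limma adjusted p = 0.0061, with 2.19% called higher). At 9 and 12 months the changes lay between 0.03 and 0.43 over the 4 muscles, with limma adjusted p of at least 0.39. So the first called age was earlier in the 2 fast muscles, and a difference between muscles at 18 months was not tested.

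Between neighbouring ages, Runx1 of tibialis anterior was called higher at 18 against 12 months (1.91 ± 0.27, where 3.49% of genes were called), at 21 against 18 (0.82 ± 0.23, 1.97%), at 24 against 21 (1.48 ± 0.23, 3.52%) and at 27 against 24 (0.74 ± 0.24, 6.08%). Gastrocnemius had called steps at 18 against 12 months (1.37 ± 0.22, 0.742%) and at 24 against 21 months (1.32 ± 0.23, 6.72%). Soleus had one at 27 against 24 months (1.41 ± 0.23, 4.52%), as did diaphragm (0.72 ± 0.23, 4.39%). The gastrocnemius median was 267 CPM at 24 months and 206 CPM at 27 months, while the medians of the other 3 muscles were higher at 27 than at 24 months.

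Fits of flat, linear and logistic curves to the log2 CPM, chosen by the Bayesian information criterion (BIC), put Runx1 in the mid-logistic class in gastrocnemius (inflection at 19 months) and in the late-logistic class in diaphragm (23.75 months), tibialis anterior (24 months) and soleus (27 months). Among the other genes, Cbfb of soleus (22.5 months) and Runx2 of gastrocnemius (22.75 months) were late rising and Runx1t1 (25.75 months) and Cbfb (27 months) of diaphragm late falling. A late rising class was given to 3.5% of genes in diaphragm, 13.8% in tibialis anterior, 7.81% in soleus and 7.37% in gastrocnemius, and any trend to 29.6%, 64.9%, 40.2% and 55.1%.

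Muscles differed in Runx1 level already at 6 months, and the order changed with age. At 6 months soleus and gastrocnemius did not differ beyond their spread (log2 difference 0.20 ± 0.28), nor did tibialis anterior and diaphragm (0.23 ± 0.33), and the first pair lay above the second, by 0.73 to 1.15. At 27 months the order was tibialis anterior, gastrocnemius, soleus and diaphragm, and all 6 pairs were called different, with 0.67 ± 0.22 between soleus and gastrocnemius as the smallest difference and 3.52 ± 0.23 between tibialis anterior and diaphragm as the largest. With total-count scaling, which shifted the median of all genes by up to 0.445 between muscles at 6 months, tibialis anterior minus diaphragm at 6 months was -0.21, and 3 differences were no longer called: gastrocnemius over diaphragm (0.52, limma adjusted p = 0.15) and over tibialis anterior (-0.73 for tibialis anterior minus gastrocnemius, limma adjusted p = 0.054) at 6 months, and gastrocnemius over soleus (-0.40 for soleus minus gastrocnemius, limma adjusted p = 0.11) at 27 months. Of all 12784 genes in the joint fit, the share called different from diaphragm was 37.3% in gastrocnemius, 23.9% in soleus and 35.1% in tibialis anterior at 6 months and 32.3%, 27.9% and 27.4% at 27 months. Between soleus and gastrocnemius it was 45.4% and 34%, between tibialis anterior and gastrocnemius 17.3% and 10.4%, and between tibialis anterior and soleus 42.9% and 31.7%.

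The difference in change itself was tested. Runx1 rose more in tibialis anterior than in diaphragm by 3.29 ± 0.40 on the log2 scale (limma adjusted p = 1.6e-13), than in soleus by 2.28 ± 0.36 (limma adjusted p = 2.1e-08) and than in gastrocnemius by 1.41 ± 0.38 (limma adjusted p = 0.0021). It rose more in gastrocnemius than in diaphragm by 1.88 ± 0.39 (limma adjusted p = 1.3e-05). The smaller differences, soleus over diaphragm (1.00 ± 0.37, limma adjusted p = 0.024) and soleus under gastrocnemius (-0.87 ± 0.36, limma adjusted p = 0.041), were no longer called with edgeR's quasi-likelihood test (adjusted p = 0.052 and 0.051). With the library axis as a covariate, gastrocnemius minus diaphragm was 0.10 (limma adjusted p = 0.97), soleus minus gastrocnemius was 0.87 (limma adjusted p = 0.24) and tibialis anterior minus gastrocnemius was 3.20, while tibialis anterior minus diaphragm was 3.30. In gastrocnemius the axis scores of 6 months (-1.12 to -0.68) and 27 months (0.27 to 2.76) did not overlap, so axis and age cannot be told apart in that muscle. Gastrocnemius was also scored on another component than the other muscles, and each muscle had its own slope. A difference from gastrocnemius with the covariate thus compares changes that were adjusted in different ways. The change of Runx1 in gastrocnemius itself was 1.92 with the axis as a covariate (limma adjusted p = 3.7e-05) and 1.82, 2.80 and 5.10 in diaphragm, soleus and tibialis anterior. The share of genes called in these differences was 20.3%, 15.8%, 7.32%, 21.6%, 11.9% and 14.5% in the order given.

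Single libraries stood out in Runx1. In tibialis anterior at 21 months replicate 7 held 320 CPM, and the next highest of the 13 libraries held 135 CPM. In soleus at 27 months replicate 9 held 24.3 CPM, and the next lowest held 83 CPM. Replicate 9 was also the lowest 27-month library of tibialis anterior, at 154 CPM, and whether both come from one animal is not given in the labels. In soleus at 24 months the 4 highest values were 127, 120, 120 and 90.2 CPM in replicates 6, 7, 11 and 5, and the next was 55.8 CPM. The 21-month tibialis anterior had the largest coefficient of variation of Runx1 among the 28 groups (90.9%), followed by the 27-month diaphragm (77.3%, 36 ± 27.9 CPM, SD, n = 12).

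Among the genes whose 28 group means, centered within each muscle, followed Runx1 most closely of 10406 genes were Tubb6, a beta-tubulin (r = 0.991), and Gadd45a, a stress-response gene induced in muscle atrophy (r = 0.988). These r describe group means that share libraries and ages and carry no test.

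Runx2 was called higher at 27 months in tibialis anterior and in none of the other 3 muscles, where its limma adjusted p was 0.66 in diaphragm and otherwise under 0.05 with a change under 1.5-fold. There the 12 libraries held 2.59 to 5.19 CPM (median 3.84) at 6 months and 3.55 to 10.8 CPM (median 6.35) at 27 months, and 10 of 12 older libraries lay above all 6-month libraries. The log2 change was 0.83 ± 0.15 (limma adjusted p = 1.4e-06). In gastrocnemius it was 0.54 ± 0.10 (limma adjusted p = 4.7e-06), under the 1.5-fold limit, from 3.21 to 5.15 CPM (median 4.07) to 4.19 to 7.69 CPM (median 5.62). The gastrocnemius value was -0.24 with the axis as a covariate (limma adjusted p = 0.39), and with total-count scaling it was 0.82 and called. In soleus it was 0.24 ± 0.11 (limma adjusted p = 0.047) and in diaphragm 0.07 ± 0.11 (limma adjusted p = 0.66).

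Runx2 was higher in soleus than in the other 3 muscles. At 6 months soleus held 7.79 to 16.3 CPM (median 12.2), and the highest value in the other muscles was 5.19 CPM. The log2 difference was 1.77 ± 0.12 against diaphragm (3.41-fold, limma adjusted p = 1.9e-34), 1.67 ± 0.12 against tibialis anterior (3.18-fold) and 1.58 ± 0.13 against gastrocnemius (3-fold), in pairs where 23.9%, 42.9% and 45.4% of all genes were called different. Diaphragm, gastrocnemius and tibialis anterior did not differ beyond their spread at 6 months (differences of -0.09 to 0.18), and with total-count scaling the differences from diaphragm turned to -0.26 in gastrocnemius and -0.34 in tibialis anterior. At 27 months soleus was still the highest, 3.7-fold over diaphragm, 2.44-fold over gastrocnemius and 2.11-fold over tibialis anterior.

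The rise of Runx2 was larger in tibialis anterior than in diaphragm (0.72 ± 0.19, limma adjusted p = 0.00088) and than in soleus (0.59 ± 0.16, limma adjusted p = 0.0013). The other 4 pairs were not called. At 24 months replicate 6 held the highest Runx2 value of the group in tibialis anterior (11.9 CPM) and in soleus (23.7 CPM), and in gastrocnemius it was replicate 7 (9.25 CPM).

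Runx3 was measured near the floor of detection, and its values are coarse. Single libraries held between 0 and 80 counts of it, so a change of a few reads moved the level. In gastrocnemius the libraries held 0.0878 to 0.316 CPM (median 0.153, 2 to 18 counts) at 6 months and 0.192 to 0.758 CPM (median 0.373, 5 to 46 counts) at 27 months. The log2 change was 1.13 ± 0.35 (limma adjusted p = 0.0039), and with the library axis as a covariate it was -0.06 (limma adjusted p = 0.98). In tibialis anterior the level went from 0.0483 to 0.388 CPM (median 0.256) to 0.322 to 0.786 CPM (median 0.523), with a log2 change of 1.13 ± 0.29 (limma adjusted p = 0.00032). Both muscles were also called at 24 months, by 1.13 ± 0.37 and 0.75 ± 0.29, and the groups overlapped in both.

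In soleus the log2 change of Runx3 from 6 to 27 months was 0.93 ± 0.46 (limma adjusted p = 0.078), and at 24 months it was -0.46 ± 0.56. The 27-month change was called with total-count scaling (1.09), with the replicate number as a block (1.05) and without either of 2 libraries, replicate 2 of 27 months (1.04) or of 6 months (1.09). The ages are different rats, so the replicate number pairs no libraries across ages. In diaphragm it was 0.29 ± 0.21 (limma adjusted p = 0.28). The diaphragm held the most Runx3 at 6 months, 0.236 to 0.989 CPM (median 0.559), which was 2.19- to 2.84-fold above the other muscles, and these 3 did not differ beyond their spread. No difference between muscles in the change of Runx3 was called, with log2 differences of -0.21 to 0.80 and SE of 0.43 to 0.54.

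Some markers of T and NK cells rose in each of the 4 muscles, also in soleus and diaphragm, where Runx3 was not called. Of 10 listed markers, 5 of 5 tested were called higher in tibialis anterior at 27 against 6 months, 4 of 5 in gastrocnemius, 5 of 7 in soleus and 3 of 9 in diaphragm. Their summed level ranged from 0.878 to 2.03 CPM at 6 months and from 2.07 to 5.85 CPM at 27 months in tibialis anterior, and from 0.922 to 1.88 to 2.18 to 9.37 CPM in gastrocnemius. In soleus it went from 1.18 to 3.13 to 2.45 to 12.1 CPM and in diaphragm from 2.63 to 5.16 to 3.79 to 13.8 CPM. No marker was at 0 in every library of a group. The listed markers that were not tested had not passed the low-count filter. A marker can pass that filter through its older libraries alone, so calls among the tested markers lean towards a rise. Among all genes 17.2% were called higher in tibialis anterior, 15.1% in gastrocnemius, 9.21% in soleus and 3.27% in diaphragm. The part of such cells in the Runx3 values was not tested, and in bulk tissue more cells of a type and more RNA per cell cannot be told apart.

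Macrophage markers, of which 10 of 10 were called higher in gastrocnemius and tibialis anterior, 2 of 10 in soleus and 1 of 10 in diaphragm, summed to 52.3 to 84.6 CPM at 6 months and 115 to 241 CPM at 27 months in tibialis anterior. The sums went from 114 to 195 to 211 to 380 CPM in gastrocnemius, from 172 to 284 to 275 to 381 CPM in soleus and from 143 to 248 to 208 to 340 CPM in diaphragm. Among all genes 15.1% were called higher in gastrocnemius, 17.2% in tibialis anterior, 9.21% in soleus and 3.27% in diaphragm. The part of macrophages in the levels of Runx1 and Runx2 was not tested.

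Cbfb, the shared partner, did not follow Runx1 in every muscle. It rose in gastrocnemius and soleus, fell under the fold limit in diaphragm and was not called in tibialis anterior, where it started highest. In gastrocnemius it went from 40.3 to 83.8 CPM (median 74.3) at 6 months to 78.2 to 139 CPM (median 98) at 27 months, a log2 change of 0.62 ± 0.14 (limma adjusted p = 7.2e-05). The call was also made at 24 months (0.81 ± 0.14, median 122 CPM). In soleus it went from 62.4 to 76.3 CPM (median 70.1) to 65.9 to 136 CPM (median 110), a log2 change of 0.61 ± 0.09 (limma adjusted p = 3.6e-08), and 11 of 12 libraries of 27 months lay above all 6-month libraries. Both changes sit just above the 1.5-fold limit, and leaving out either of 2 soleus libraries (27 months, replicates 2 and 8) or any of 3 gastrocnemius libraries (6 months, replicates 4 and 9, and 27 months, replicate 6) brought them to 0.58 and to 0.52 to 0.58, just below it. The gastrocnemius change was 0.02 with the axis as a covariate (limma adjusted p = 0.98).

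In diaphragm Cbfb went from 70.1 to 89.3 CPM (median 80.3) to 44.6 to 83 CPM (median 57.7), and 9 of 12 libraries of 27 months lay below all 6-month libraries. The log2 change was -0.46 ± 0.10 (limma adjusted p = 6.4e-05), and the level at 24 months, median 82.5 CPM, was close to that at 6 months. With the library axis as a covariate, whose scores were low in the 27-month diaphragm, the change was -0.05 (limma adjusted p = 0.45). In tibialis anterior it held 114 to 152 CPM (median 134) at 6 months and 81.9 to 165 CPM (median 133) at 27 months, a log2 change of -0.11 ± 0.08 (limma adjusted p = 0.19).

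At 18 months Cbfb was lower in tibialis anterior (-0.34 ± 0.08, limma adjusted p = 0.00025), with smaller values in soleus (-0.24 ± 0.10, limma adjusted p = 0.056) and diaphragm (-0.18 ± 0.10, limma adjusted p = 0.17), all under the fold limit. It was 0.17 ± 0.14 in gastrocnemius. At 21 months the changes in these 3 muscles were 0.05 to 0.14. With the library axis as a covariate the 18-month changes were -0.01 in tibialis anterior, -0.02 in soleus and 0.05 in diaphragm. The sign of the axis had been set to go with Cbfb, which does not alter these adjusted values. In soleus the axis scores of 18 months (-3.47 to -0.25) and 6 months (-0.11 to 0.77) did not overlap. Axis and age thus cannot be told apart in that comparison. In tibialis anterior the scores overlapped in part, with -3.16 to 0.38 at 18 months and -0.16 to 0.66 at 6 months. Without the 18-month diaphragm library that scored -5.93 on the axis, which held 28.6 CPM, the diaphragm change was -0.05.

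**Figure D2:**
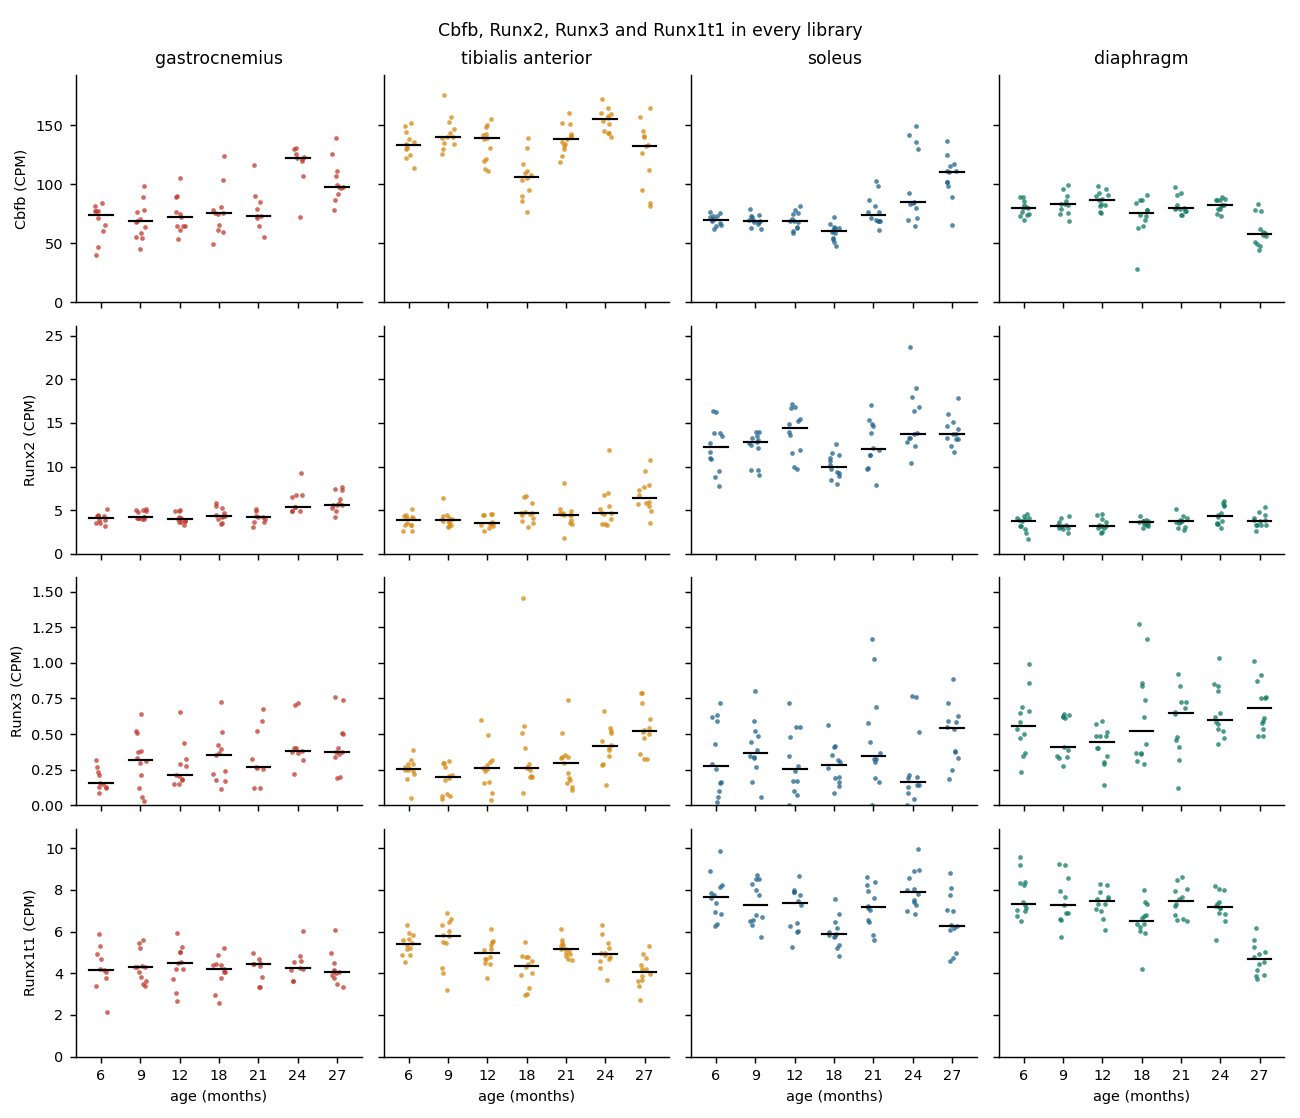
Cbfb, Runx2, Runx3 and Runx1t1 levels in CPM (linear axes from 0, shared along each row) against age in months, 1 column per muscle; points are libraries and bars are medians. Cbfb climbs at 24 and 27 months in gastrocnemius and soleus and drops at 27 months in diaphragm, Runx2 is highest in soleus at all ages, and Runx1t1 falls at 27 months in diaphragm.

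The muscle differences in Cbfb change were among the clearest of the family. The change was larger in gastrocnemius than in diaphragm by 1.04 ± 0.14 (limma adjusted p = 7.8e-11) and in soleus than in diaphragm by 1.02 ± 0.14 (limma adjusted p = 9.8e-11). It was smaller in tibialis anterior than in gastrocnemius (-0.73 ± 0.14, limma adjusted p = 1.2e-05) and than in soleus (-0.71 ± 0.14, limma adjusted p = 4.2e-06). At 6 months tibialis anterior exceeded the other muscles 1.68- to 2.01-fold, and at 27 months it was within 1.21-fold of gastrocnemius and soleus, while all 3 lay 1.71- to 2.07-fold above diaphragm. With the library axis as a covariate, soleus over diaphragm was 0.75 and tibialis anterior under soleus was -0.65, both still called, whereas gastrocnemius over diaphragm was 0.07 and tibialis anterior minus gastrocnemius 0.03. The gastrocnemius values carry the limits that axis and age cannot be told apart there and that its axis is another component than that of the other muscles.

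Runx1 and Cbfb went together in some libraries of soleus. At 24 months replicates 5, 6, 7 and 11, which held the 4 highest Runx1 values, also held the 4 highest Cbfb values, 130, 135, 142 and 150 CPM, and the next was 92.2 CPM. Since these libraries stand apart from the other 8, no correlation is given for that age. At 27 months replicate 9 was lowest in both genes, with 65.9 CPM of Cbfb.

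**Figure D3:**
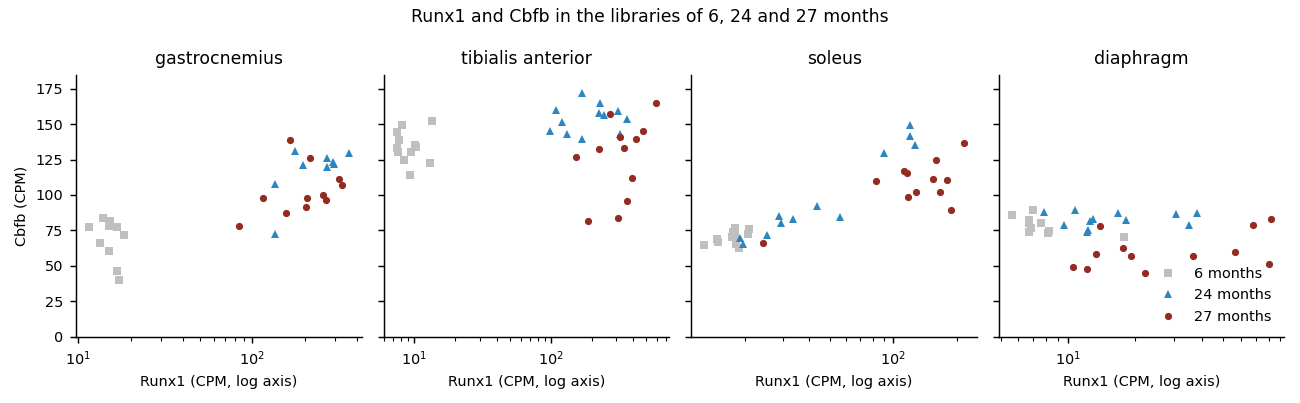
Cbfb level in CPM against Runx1 level in CPM (log axis) for each library of 6, 24 and 27 months, 1 panel per muscle. In soleus 4 libraries of 24 months lie at 90.2 to 127 CPM of Runx1 and at 130 to 150 CPM of Cbfb, and in diaphragm most 27-month libraries have more Runx1 and less Cbfb than those of 6 months.

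Across the 27-month libraries, Runx1 was set against each of the other 4 genes in each muscle, 16 relations in all. The 3 smallest p were those of Runx1t1 in tibialis anterior (Pearson r = 0.68, permutation p = 0.016, adjusted p = 0.17, Spearman rho = 0.54, permutation p = 0.077, adjusted p = 0.36, n = 12), Runx2 in tibialis anterior (r = 0.64, permutation p = 0.025, adjusted p = 0.17, rho = 0.62, permutation p = 0.038, adjusted p = 0.36, n = 12) and Cbfb in soleus (r = 0.75, permutation p = 0.031, adjusted p = 0.17, rho = 0.25, permutation p = 0.43, adjusted p = 0.53, n = 12). None passed adjustment over the 16 relations with TMM scaling, and all 3 did with total-count scaling, at r = 0.82 (adjusted p = 0.017), 0.76 (adjusted p = 0.031) and 0.81 (adjusted p = 0.037) in the same order. Without the 2 libraries farthest from the Runx1 median, r was 0.31, 0.46 and 0.16, so the soleus relation rests on those libraries.

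Runx1t1, the co-repressor, was called lower at 27 months in diaphragm and in no other muscle. In diaphragm it went from 6.49 to 9.6 CPM (median 7.34) at 6 months to 3.72 to 6.17 CPM (median 4.66) at 27 months, and every 27-month library lay below every 6-month library, as for 1.58% of genes. The log2 change was -0.77 ± 0.09 (limma adjusted p = 1.5e-11), with 4.25% of genes called lower, and nearly all of it came between 24 and 27 months (-0.68 ± 0.09). With the library axis as a covariate it was -0.55 (adjusted p = 1.7e-08), under the fold limit. In tibialis anterior the change was -0.41 ± 0.09 (limma adjusted p = 6.3e-05) and in soleus -0.26 ± 0.09 (limma adjusted p = 0.0087), both under the fold limit. In gastrocnemius it was 0.05 ± 0.13 (limma adjusted p = 0.76).

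Runx1t1 was also lower at 18 months in diaphragm (-0.29 ± 0.08), soleus (-0.39 ± 0.09) and tibialis anterior (-0.39 ± 0.09), with limma adjusted p of 0.0057, 6.0e-04 and 5.6e-04, and it was within 0.12 of its 6-month level at 21 and 24 months. With the axis as a covariate these 18-month changes were -0.15, -0.23 and -0.19, with adjusted p = 0.10, 0.12 and 0.19. The soleus value carries the limit that its axis scores of 6 and 18 months did not overlap. At 6 months soleus and diaphragm held the same level within error (difference -0.00 ± 0.08), tibialis anterior lay 0.50 ± 0.09 below both and gastrocnemius 0.93 ± 0.10 below both. The fall was larger in diaphragm than in gastrocnemius (difference in change 0.76 ± 0.14, limma adjusted p = 8.7e-07), and with the axis as a covariate that difference was 0.01. Diaphragm and gastrocnemius were scored on different components there.

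**Figure D4:**
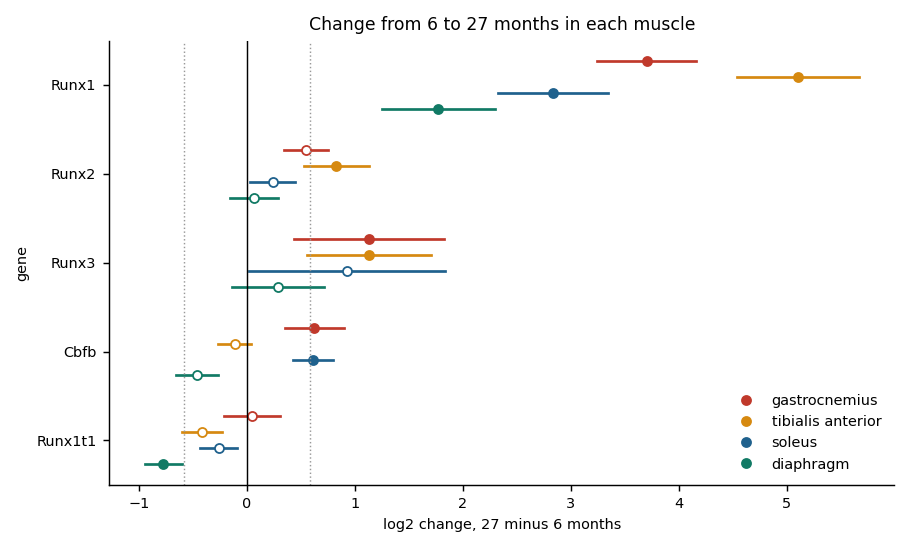
Log2 change from 6 to 27 months with its 95% confidence interval for each gene and muscle; filled circles passed both the adjusted p and the 1.5-fold limit (dotted lines at 1.5-fold), open circles did not. Runx1 has the largest change in each muscle, and Cbfb is positive in gastrocnemius and soleus and negative in diaphragm.

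Over the 28 group means centered within a muscle, Runx1 went with Runx2 at r = 0.81 and with Runx3 at r = 0.80, with Cbfb at r = 0.43 and with Runx1t1 at r = -0.38. The closest genes to Cbfb were Ccdc50 (r = 0.949), Rpgrip1l (r = 0.946), a protein of the cilium base, and Stam (r = 0.927), an endosomal sorting adaptor. For Runx2 they were Zfp275 (r = 0.928), Irak4 (r = 0.923), a kinase of Toll-like receptor signaling, and Prkcd (r = 0.916), a protein kinase C. For Runx1t1 they were Cav2, a caveolin (r = 0.946), Kitlg, the Kit ligand (r = 0.94), and Ifit2, an interferon-induced gene (r = 0.933). For Runx3 they were Ppp4c (r = 0.888), Prex1 (r = 0.871) and Eml2 (r = 0.868). These values describe group means that share libraries and ages.

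The co-factors of Runx proteins had a median change near 0 in each muscle, as did all genes. Of 31 listed co-repressors, co-activators and modifying enzymes, 29 were tested, and their median log2 change from 6 to 27 months was -0.05 in diaphragm and gastrocnemius, 0.05 in soleus and -0.04 in tibialis anterior. The median of all genes was 0.00 to 0.04. In gastrocnemius 2 were called higher and 2 lower, in soleus 1 and 1, and in tibialis anterior 0 and 3. Among all genes 15.1%, 9.21% and 17.2% were called higher and 7.76%, 5.78% and 10.4% lower in these muscles. The 3 called higher, named after their values were seen, were Hipk2 (0.66 ± 0.07) and Cdk6 (0.62 ± 0.11), both kinases, in gastrocnemius and Tle1 (0.79 ± 0.12), a Groucho co-repressor, in soleus. In diaphragm limma called 0 of 29, with 15 at an unadjusted p under 0.05, and no other tool was run on the lists. Of all genes in diaphragm 3.27% were called higher and 4.25% lower. At an unadjusted limma p under 0.05 were 18 of 29 in gastrocnemius, 18 in soleus and 26 in tibialis anterior, mostly with changes under the fold limit. Cbfa2t3, a close relative of Runx1t1 (ETO2), fell in all 3 limb muscles, at -0.93 ± 0.07 in gastrocnemius, -0.83 ± 0.07 in tibialis anterior and -0.62 ± 0.08 in soleus, and its value was -0.41 ± 0.06 in diaphragm. Tle5, a short Groucho family member, fell in gastrocnemius (-0.89 ± 0.09) and tibialis anterior (-0.65 ± 0.07). Pim1, a kinase that phosphorylates Runx proteins, fell in tibialis anterior (-0.89 ± 0.12), and Tle2 did not pass in any muscle, with values of -0.57 to 0.02.

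The denervation genes rose with Runx1. Of 17 tested genes that are known to respond to loss of the nerve, 17 were called higher in tibialis anterior and soleus, 16 in gastrocnemius and 13 in diaphragm, with median log2 changes of 3.82, 2.25, 3.34 and 1.08. No gene of the list was called lower. The list was chosen with earlier results of these data known, and it holds Gadd45a, which was named above as following Runx1. The low-count filter limits its counts as it does those of the T and NK cell markers. Among all genes 17.2% were called higher in tibialis anterior, 9.21% in soleus, 15.1% in gastrocnemius and 3.27% in diaphragm. Chrng, the fetal acetylcholine receptor subunit, changed by 7.16 ± 1.05 in tibialis anterior, 5.71 ± 0.60 in gastrocnemius, 3.73 ± 0.36 in soleus and 3.68 ± 0.52 in diaphragm. Cdkn1a, the cell cycle inhibitor p21, changed by 5.33 ± 0.35, 4.44 ± 0.25, 4.76 ± 0.32 and 1.60 ± 0.15 in the same order, and Sln, the calcium pump regulator sarcolipin, by 6.58 ± 0.81, 5.53 ± 0.35, 2.14 ± 0.19 and 1.08 ± 0.13. The diaphragm had the smallest median, as it had the smallest Runx1 change. Of the 15 promoter windows at hand for 13 of these genes, 4 (26.7%) held the Runx motif described above, against 22.9% of all windows.

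Genes known as targets of Runx1 and Runx3 in blood cells rose in the fast muscles, 10 of 12 tested in tibialis anterior and 7 of 11 in gastrocnemius, with 6 of 13 in soleus and 2 of 13 in diaphragm. In tibialis anterior and gastrocnemius 1 gene each was called lower. Among all genes 17.2% were called higher and 10.4% lower in tibialis anterior, and 15.1% and 7.76% in gastrocnemius. In soleus 9.21% and in diaphragm 3.27% were called higher. The low-count filter limits these counts as it does those of the T and NK cell markers. Il2rb, a cytokine receptor chain of T and NK cells, rose in all 4 muscles, by 1.87 ± 0.22 in tibialis anterior, 1.62 ± 0.20 in gastrocnemius, 1.70 ± 0.24 in soleus and 0.92 ± 0.20 in diaphragm. Prf1, perforin, rose in soleus (1.71 ± 0.27), gastrocnemius (1.25 ± 0.25) and tibialis anterior (1.22 ± 0.22). Cd4, the helper T cell co-receptor, rose in the 3 limb muscles by 0.62 to 1.26, and Itgal, an integrin of leukocytes, in gastrocnemius (0.79 ± 0.14) and tibialis anterior (1.48 ± 0.20). The list does not separate genes that Runx proteins activate from those they repress, so its calls give no direction of Runx activity. These are also genes of the immune cells named above, and the part of more immune cells was not tested.

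Genes known as targets of Runx2 in bone moved in different directions. Of 13 listed, 8 were tested in tibialis anterior, 7 in diaphragm and 6 each in soleus and gastrocnemius. In tibialis anterior 4 were called higher and 0 lower, in soleus 0 and 4, in gastrocnemius 2 and 2 and in diaphragm 1 and 2. A gene can pass the low-count filter through 1 age group alone, which limits these counts. Among all genes 17.2% were called higher and 10.4% lower in tibialis anterior, and 9.21% and 5.78% in soleus. The shares were 15.1% and 7.76% in gastrocnemius and 3.27% and 4.25% in diaphragm. Col1a1, type I collagen, fell in gastrocnemius (-1.89 ± 0.19), diaphragm (-1.51 ± 0.17) and soleus (-1.17 ± 0.18), and its value was -0.55 ± 0.21 in tibialis anterior. Spp1, osteopontin, rose in tibialis anterior (1.45 ± 0.42) and fell in soleus (-0.98 ± 0.22). Alpl, alkaline phosphatase, fell in soleus (-0.79 ± 0.14) and gastrocnemius (-0.64 ± 0.12), and Tnfrsf11b, osteoprotegerin, rose in tibialis anterior (0.99 ± 0.17) and gastrocnemius (0.71 ± 0.15). Most of these genes are better known in bone than in muscle, and Col1a1 is also a fibroblast marker.

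**Figure D5:**
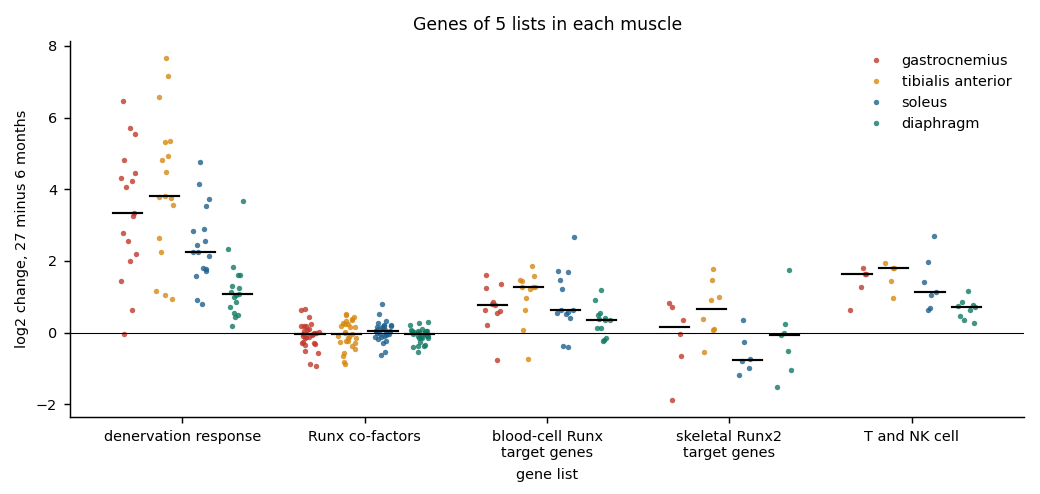
Log2 change from 6 to 27 months of each tested gene of 5 lists, with 1 column of points per muscle and bars at the medians. The denervation genes have medians of 1.08 to 3.82, the Runx co-factors lie around 0 with medians of -0.05 to 0.05, and the blood-cell target and T and NK cell lists have positive medians in each muscle.

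Markers of other cells in the tissue were set beside the family. The genes named here outside the largest mean changes were chosen after their values were seen. Among all genes 15.1% were called higher and 7.76% lower in gastrocnemius, and 9.21% and 5.78% in soleus. The shares were 17.2% and 10.4% in tibialis anterior and 3.27% and 4.25% in diaphragm. Of 8 satellite cell markers, 2 were called higher in gastrocnemius, 3 in soleus, 2 in tibialis anterior (with 1 lower) and 1 in diaphragm. Of 8 Schwann cell markers, 2 rose and 2 fell in gastrocnemius, 1 rose in soleus and 3 rose in tibialis anterior. In diaphragm limma called 0 of 8 Schwann cell markers, with 3 at an unadjusted p under 0.05, and 0 of 6 endothelial markers, with 4. Of 6 endothelial markers, 1 fell in each limb muscle, Kdr, the receptor of vascular growth factor, by 0.74 to 1.06. Of 8 fibroblast markers, 3 fell in diaphragm, where their summed level went from 1734 to 2779 CPM at 6 months to 911 to 1624 CPM at 27 months. In gastrocnemius 1 rose and 1 fell and the sum went from 1989 to 3122 to 1099 to 2346 CPM, in soleus 1 rose and 1 fell (1564 to 3680 to 1531 to 2941 CPM) and in tibialis anterior 2 rose (720 to 1367 to 591 to 1406 CPM). The 3 of diaphragm were Col1a1, Col3a1 and Lum, all matrix genes. Their part in the Runx1t1 and Cbfb values of diaphragm was not tested. Of 8 muscle fibre genes, Myh4, Myh1 and Tnnt3, all genes of fast fibres, rose in soleus by 2.58 to 3.22, Myh4 rose in diaphragm (1.37 ± 0.48), Ckm and Myh4 fell in gastrocnemius, and Ckm, Myh4 and Myh7 fell in tibialis anterior. The part of fibre type in the levels of the family was not tested.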

How the data were processed

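Total RNA of the 4 muscles was sequenced by the study as strand-specific, ribosomal RNA-depleted libraries in paired-end mode. The authors processed the reads with ArrayStudio (version not given in the sources used here) on the rat B6.0 reference with a RefSeq-based gene model and deposited raw counts per gene, which were used here without change. The deposited counts summed to 17555294 to 85316329 per library. Genes were filtered with filterByExpr (minimum count 10, total 15) within each muscle, scaled by TMM and fitted with limma-voom (limma 3.58.1, edgeR 4.0.16, R 4.3.3) with 1 mean per age, as the study's methods use limma and a 1.5-fold limit. The adjusted p here is Benjamini-Hochberg under 0.05. Muscles were compared in a joint fit of 28 groups. A trend needed a BIC gain of 6 over a flat line, and a logistic curve 2 over a linear one, with late inflections after 21 months. Log2 CPM used a prior count of 0.5. Relations across libraries used two-sided tests of 100000 permutations. Alternatives were edgeR's quasi-likelihood test, DESeq2 1.42.0, other scalings, filters, adjustments and libraries left out. The library axis as a covariate and the removal of 1 diaphragm library were added after seeing the data. Scripts were tested on simulated data.

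The 5 genes, the gene lists and the tests were chosen with earlier results of these data known. Named were the 5 genes, up to 4 genes per list with the largest absolute change averaged over the 4 muscles among those tested in all of them, the 3 genes most like each of the 5, and Myh7 and Myh4. A gene that this rule names is not reported here. Levels of different genes are not compared, since transcript lengths were not used here. Promoter sequences came from RefSeq on build GRCr8, which is not the build of the counts.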

Additional observations from a re-analysis of the deposited data

Results flagged for a closer look

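Groups of 10 libraries or fewer, which were gastrocnemius at 6, 21 and 24 months, were tested for a sample far from the others, 15 tests over the 5 genes. Chance flags about 1 in 20, and 2 values stood apart, both at 24 months. The other muscles have larger groups and were not tested. Replicate 7 held 3.21 log2 CPM of Runx2, with the nearest other library at 2.76. Replicate 0 held 6.18 log2 CPM of Cbfb, with the nearest at 6.75, and it also held the lowest Runx1 of its group (135 CPM).

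The change from 6 to 27 months differed between muscles in 13 tests of the difference itself in limma. Each gene of the family was tested in each pair of muscles. The tests not listed here, among them all those of Runx3, were not called. Of all 12784 genes in the joint fit, the share called ranged from 7.32% (tibialis anterior minus gastrocnemius) to 21.6% (gastrocnemius minus diaphragm). For Runx1 the log2 differences were 3.29 for tibialis anterior minus diaphragm, 2.28 for tibialis anterior minus soleus, 1.88 for gastrocnemius minus diaphragm, 1.41 for tibialis anterior minus gastrocnemius, 1.00 for soleus minus diaphragm and -0.87 for soleus minus gastrocnemius. For Cbfb they were 1.04 for gastrocnemius minus diaphragm, 1.02 for soleus minus diaphragm, -0.73 for tibialis anterior minus gastrocnemius and -0.71 for tibialis anterior minus soleus. For Runx2 they were 0.72 for tibialis anterior minus diaphragm and 0.59 for tibialis anterior minus soleus. For Runx1t1 the difference was 0.76 for gastrocnemius minus diaphragm.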

How the results depend on the processing

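The rise of Runx1 from 6 to 27 months was called in all 4 muscles under each alternative tried, Bonferroni adjustment, DESeq2, edgeR and the library axis included. Under alternatives other than leaving out 1 library, 675 values kept direction and call, 37 turned in sign, 26 lost and 17 gained a call, and 3 counts of genes moved. For the rest the cause was not tested, except that Bonferroni adjustment is stricter by construction. Libraries of 1 group number 9 to 13, and Runx3, with 0 to 80 counts, is limited by depth.

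Leaving out 1 library at a time (93 refits) gave log2 changes from 6 to 27 months of 1.61 to 1.93 (diaphragm), 3.62 to 3.81 (gastrocnemius), 2.76 to 3.04 (soleus) and 5.02 to 5.20 (tibialis anterior) for Runx1. In the same order of muscles Runx2 gave -0.0020 to 0.13, 0.50 to 0.60, 0.19 to 0.28 and 0.78 to 0.89, Runx3 gave 0.19 to 0.36, 0.99 to 1.28, 0.66 to 1.09 and 0.91 to 1.19, Cbfb gave -0.51 to -0.42, 0.52 to 0.66, 0.58 to 0.67 and -0.15 to -0.054, and Runx1t1 gave -0.81 to -0.73, -0.098 to 0.10, -0.30 to -0.20 and -0.45 to -0.38. Runx2 of diaphragm turned without 6-month replicate 3, and Runx1t1 of gastrocnemius without 27-month replicate 10 (-0.0035) or 6-month replicate 4 (-0.098). Runx2 of gastrocnemius became called without 27-month replicate 1 (0.60), and Runx3 of soleus without 27-month replicate 2 (1.04) or 6-month replicate 2 (1.09).

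Total-count scaling moved the median change of all genes from 6 to 27 months by 0.04 in diaphragm, 0.278 in gastrocnemius, 0.145 in soleus and 0.322 in tibialis anterior. With it Runx2 of gastrocnemius (0.82) and Runx3 of soleus (1.09) became called and Cbfb of tibialis anterior turned to 0.21. Among differences in change, newly called were Runx2 (gastrocnemius minus diaphragm, 0.70), Runx3 (tibialis anterior minus diaphragm, 1.12), Cbfb (tibialis anterior minus diaphragm, 0.63) and Runx1t1 (soleus and tibialis anterior minus diaphragm, 0.61 and 0.62), Cbfb of tibialis anterior minus soleus was no longer called (-0.55), and Runx1t1 of that pair turned (0.015). Levels turned for Runx1 (-0.21) and Runx2 (-0.34) of tibialis anterior minus diaphragm and Runx2 of gastrocnemius minus diaphragm (-0.26) at 6 months, and at 27 months for Runx1t1 of tibialis anterior minus gastrocnemius (0.011) and Runx3 (-0.092) and Cbfb (-0.023) of tibialis anterior minus soleus. Correlations with Runx1 passed for Cbfb of soleus (r = 0.81), Runx2 (r = 0.76) and Runx1t1 (r = 0.82) of tibialis anterior, and that of Runx1t1 in soleus turned to 0.23.

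With the library axis as a covariate, added after seeing the data, changes from 6 to 27 months were -0.55 for Runx1t1 of diaphragm, 0.062 for Cbfb of tibialis anterior and, in gastrocnemius, -0.24 for Runx2, -0.061 for Runx3, 0.022 for Cbfb and -0.53 for Runx1t1. The axis of gastrocnemius is another component than that of the other muscles, which limits the differences that involve it. In soleus the axis scores of 6 and 18 months did not overlap, which limits the 18-month values there. Differences in change for gastrocnemius minus diaphragm were 0.099 (Runx1), -0.36 (Runx2), -0.094 (Runx3), 0.072 (Cbfb) and 0.010 (Runx1t1), for soleus minus gastrocnemius 0.87, 0.49, 0.89, 0.68 and 0.35, for tibialis anterior minus gastrocnemius 1.14 (Runx2), 0.025 (Cbfb) and 0.20 (Runx1t1), and for tibialis anterior minus diaphragm 1.09 (Runx3). At 18 months the sign turned in diaphragm for Runx2 (0.022), Runx3 (-0.12) and Cbfb (0.047), in gastrocnemius for Runx2 (-0.071) and in soleus for Runx3 (-0.050), and without the diaphragm library standing apart Runx2 was 0.031 and Runx3 -0.076.

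With Bonferroni adjustment no longer called were Runx3 of gastrocnemius (1.13) and tibialis anterior (1.13), Cbfb of gastrocnemius (0.62), and the differences in change of Runx1 for soleus minus diaphragm (1.00), soleus minus gastrocnemius (-0.87) and tibialis anterior minus gastrocnemius (1.41) and of Runx2 for tibialis anterior minus diaphragm (0.72) and minus soleus (0.59). Sample quality weights gave 0.47 for Cbfb and -0.069 for Runx1t1 of gastrocnemius, and differences of 1.08 (Runx3, gastrocnemius minus diaphragm), 0.18 (Cbfb, soleus minus gastrocnemius), -0.26 (Runx3) and -0.55 (Cbfb, both tibialis anterior minus gastrocnemius). edgeR's quasi-likelihood test gave 0.80 and -0.80 for Runx1 of soleus minus diaphragm and minus gastrocnemius, 0.021 for Cbfb of soleus minus gastrocnemius, -0.12 for Runx3 of tibialis anterior minus gastrocnemius and -0.0026 for Runx1t1 of gastrocnemius, where DESeq2 gave -0.010. Without a low-count filter Runx1 of soleus minus gastrocnemius was -0.86 and Runx3 of tibialis anterior minus gastrocnemius -0.12. With a BIC margin of 10 the linear trend of Runx1t1 in tibialis anterior (gain 8.05) was lost.

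Same-numbered libraries were compared between muscles by the correlation of their deviations. All were over 0.1 for diaphragm with tibialis anterior at 12 months (lowest 0.11) and 24 months (lowest 0.12) and for soleus with tibialis anterior at 24 months (lowest 0.13), and not at 6 or 27 months in any pair of muscles, where the lowest value reached -0.62. Every library's best match was its own number in no pair, with 10 of 12 for soleus and tibialis anterior at 6 months. Such a shared number is a hint from the data, and the muscle comparisons treat the libraries as independent. A replicate block over libraries of the same age and number in the muscle comparisons (consensus correlation 0.0622) changed no call, and the replicate number as a block within a muscle made Runx3 of soleus called (1.05) and changed no other. Within a muscle that number joins different rats of different ages. Same-numbered soleus libraries of 6 and 27 months had a mean correlation of 0.054.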
